A study of Mus musculus with 12 samples.

Results

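Aminoacyl-tRNA synthetases were followed through RNA sequencing of total RNA from sorted hematopoietic stem cells of C57BL/6J mice. They are the enzymes that load each tRNA with its amino acid. The members were all protein-coding mouse genes whose RefSeq symbol follows the naming pattern of the family, a one-letter amino acid code before "ars", with Eprs and the Farsa and Farsb subunits. This gave 37 genes of the 27179 in the count table, of which 20 encode cytosolic enzymes and 17 mitochondrial ones, marked by the suffix 2. All 37 were counted at 318 reads or more in every library and passed the filter on low counts. Group CE (CE1, CE2, CE3) carried the Eµ-myc transgene on a Casp1-/- Casp11-/- background. Group E (E1, E2, E3) carried Eµ-myc with both caspases intact, group C (C1, C2, C3) was Casp1-/- Casp11-/- without the transgene, and group WT (WT2, WT3, WT4) was wild type. Each group had 3 mice and each mouse gave 1 library. In Eµ-myc mice the Myc transgene is driven by the immunoglobulin heavy chain enhancer, whose main activity is in B-lineage cells. Casp11 is listed as Casp4 in the annotation.

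Each synthetase recognises 1 amino acid and the tRNAs that carry it, activates the amino acid with ATP and transfers it to the tRNA, and thereby sets how the genetic code is read. The enzymes fall into 2 structural classes that do not share a catalytic fold. Separate nuclear genes serve the cytosol and the mitochondria, with exceptions: Gars and Kars each encode the enzyme of both compartments, and Eprs joins the glutamyl and prolyl enzymes in a single protein. In animal cells 8 of the cytosolic gene products (those of Eprs, Iars, Lars, Mars1, Qars, Rars, Kars and Dars) sit in a multisynthetase complex on the scaffold proteins of Aimp1, Aimp2 and Eef1e1. Many cytosolic synthetase genes are known targets of MYC in other cells and of ATF4, the transcription factor of the amino acid response. Blood stem cells are known for a low rate of protein synthesis.

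Total counts per library were 24529611 to 34065910. Casp1 had 5.88, 6.76 and 5.72 CPM in CE, 43.4, 37.8 and 45.1 CPM in E, 6.39, 5.1 and 6.2 CPM in C and 47.8, 39.7 and 29.8 CPM in WT libraries, a fall with the caspase knockout label (CE and C minus E and WT, log2 change -2.76, SE 0.12, adjusted p = 5.72e-09). Casp4 fell by less (log2 change -0.49, SE 0.13, adjusted p = 0.0189), and which exons its remaining counts cover cannot be read from counts per gene. All 10 stem cell markers were detected in every library, with a summed level of 819 to 872 CPM in CE, 696 to 789 CPM in E, 706 to 773 CPM in C and 576 to 699 CPM in WT libraries. The 8 neutrophil markers summed to 8327 to 13275 CPM over all libraries. The 8 B-lineage markers summed to 70.4 to 80.1 CPM in CE, 73.0 to 86.2 CPM in E, 154 to 228 CPM in C and 97.5 to 178 CPM in WT libraries, and none of the 8 was at 0 in any library. Libraries C1 and C3 stand apart in the number of genes with a count, 22900 and 21247, against 17310 to 18863 in the other 10. Transcripts of 4 Y-linked genes summed to 91.4 to 121 CPM in the whole of group C and in CE1 and CE2, and to 0.0365 to 0.263 CPM in the other 7 libraries, CE3 among them, so that this difference cannot be told apart from the caspase label between groups C and WT. The labels give neither sex nor batch. In bulk RNA a lower level can stand for fewer cells of a type or for less RNA per cell, and these cannot be told apart.

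Promoters were searched for the letters of 2 known regulatory elements, since the genotypes include a Myc transgene. The window was the 250 bases before the first start listed for a gene in the RefSeq promoters (GRCm38.p6). That start is not always the outermost start of the gene. This gave 27 members, 13 cytosolic and 14 mitochondrial, and 27025 genes in all. The E-box CACGTG, the hexamer that MYC and its partner MAX bind, was found in 3 of the 13 cytosolic promoters (23.1%: Aars, Farsb and Iars), in 0 of the 14 mitochondrial ones and in 6.05% of all. The amino acid response element TGATGNAA, searched on both strands as an octamer bound by ATF4 with a C/EBP partner, was found in 3 of the 13 cytosolic promoters (23.1%: Aars, Gars and Tars), in 0 of the 14 mitochondrial ones and in 3.53% of all. No match of one element overlapped a match of the other. The 5 promoters with a match are shown because they carry the letters through which MYC and ATF4 are known to act. They are written from 5′ to 3′ on the gene's strand, with the matched letters in capitals. They lie at chr8:111033592-111033841 on the plus strand (Aars), chr1:78488898-78489147 on the minus strand (Farsb), chr6:55037751-55038000 on the plus strand (Gars), chr13:49681880-49682129 on the plus strand (Iars) and chr15:11399659-11399908 on the minus strand (Tars).
Aars: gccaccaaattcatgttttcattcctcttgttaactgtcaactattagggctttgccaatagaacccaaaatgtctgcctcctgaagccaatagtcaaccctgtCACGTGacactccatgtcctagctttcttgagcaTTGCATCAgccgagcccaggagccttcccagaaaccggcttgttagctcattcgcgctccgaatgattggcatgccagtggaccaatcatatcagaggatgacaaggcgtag
Farsb: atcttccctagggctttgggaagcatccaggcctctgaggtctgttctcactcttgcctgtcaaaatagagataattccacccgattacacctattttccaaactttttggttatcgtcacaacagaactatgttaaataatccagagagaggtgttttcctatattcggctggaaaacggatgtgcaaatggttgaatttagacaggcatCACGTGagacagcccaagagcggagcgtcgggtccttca
Gars: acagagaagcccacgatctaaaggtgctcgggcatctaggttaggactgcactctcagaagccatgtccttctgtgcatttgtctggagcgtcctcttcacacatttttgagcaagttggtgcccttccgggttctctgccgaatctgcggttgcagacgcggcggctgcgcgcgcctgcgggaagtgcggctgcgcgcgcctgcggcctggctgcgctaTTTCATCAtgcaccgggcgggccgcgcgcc
Iars: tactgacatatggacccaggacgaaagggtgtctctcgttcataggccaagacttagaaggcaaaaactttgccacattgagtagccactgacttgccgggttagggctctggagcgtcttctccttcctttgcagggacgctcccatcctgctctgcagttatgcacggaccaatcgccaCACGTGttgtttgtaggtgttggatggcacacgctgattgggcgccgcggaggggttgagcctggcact
Tars: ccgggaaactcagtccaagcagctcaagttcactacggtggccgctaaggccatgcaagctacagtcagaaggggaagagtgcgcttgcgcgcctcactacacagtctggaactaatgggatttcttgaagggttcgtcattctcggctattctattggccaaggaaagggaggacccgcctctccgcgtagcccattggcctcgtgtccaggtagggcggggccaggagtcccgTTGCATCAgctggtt
Aars held both elements, the E-box at -146 and the response element at -112 relative to the start listed for it. That start lies inside the gene, whose RefSeq span begins at chr8:111027778, so its window is not the one before the outermost start. The E-boxes of Farsb and Iars began at -39 and -69, and the response elements of Gars and Tars at -30 and -15. A match describes these letters only and does not show that a factor binds there.

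To compare levels between genes, CPM, the counts scaled by the library's size after TMM correction, were divided by the length of the gene's longest transcript in kb. Among the cytosolic enzymes Vars, the valyl synthetase, had the highest level in WT libraries at 163 ± 22.5 CPM per kb (SD, n = 3). Kars, the lysyl enzyme of both compartments, followed with 115 ± 14.9 CPM per kb, and Gars, its glycyl counterpart, with 67.8 ± 3.82 CPM per kb. The lowest were Tars (threonyl, 22.7 ± 3.67 CPM per kb), Aars (alanyl, 21.8 ± 1.65 CPM per kb) and Cars (cysteinyl, 17.1 ± 1.94 CPM per kb). Vars and Kars each stood clear of the next gene in all 12 libraries, whereas 16 of the 19 neighbouring pairs in the cytosolic order overlapped between their WT libraries, so most of that order is not resolved at n = 3. The order also depends on the length used: with the length of all exons merged, Qars moved to place 11, against 4, and Dars to place 12, against 7, while the first 3 places and the last stayed the same.

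**Figure D1:**
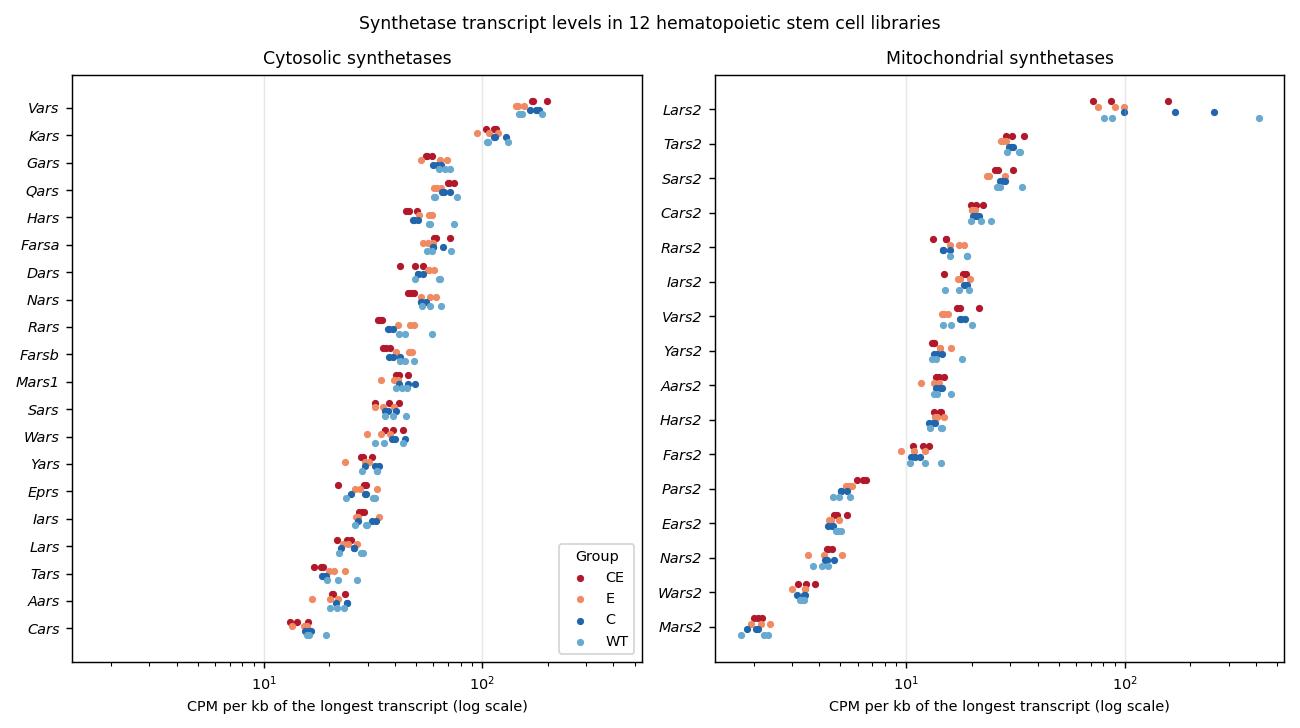
Level of 36 synthetases in CPM per kb of the longest transcript on a log axis, with 1 point per library and colours for the groups CE, E, C and WT, cytosolic enzymes on the left and mitochondrial enzymes on the right. Vars and Kars lie above the other cytosolic members in every library, and Lars2 is the single member whose libraries spread widely, between 72.0 and 410.5 CPM per kb.

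Vars had 703, 710.3 and 821 CPM in CE, 648, 606 and 591 CPM in E, 684, 755 and 735 CPM in C and 611, 633 and 782 CPM in WT libraries. Kars had 274, 253 and 281 CPM in CE, 286, 259.8 and 230.1 CPM in E, 274, 311 and 278 CPM in C and 254, 259 and 319 CPM in WT libraries, and Gars had 134, 133 and 141 CPM in CE, 154, 164 and 126 CPM in E, 142, 154 and 148 CPM in C and 170.3, 152 and 162 CPM in WT libraries. Between groups that differ in the transgene alone or in the caspases alone, these 3 abundant genes overlapped, except that every Vars value of CE lay above every one of E and every Gars value of CE lay below every one of C. At the low end, Aars had 120.2, 118 and 135 CPM in CE, 116, 126 and 95.6 CPM in E, 123, 138 and 138 CPM in C and 125, 116 and 135 CPM in WT libraries, and its lowest library was E3. Cars, the least abundant cytosolic member per kb, had 42.8, 45.9 and 51.7 CPM in CE, 49.6, 50.9 and 43.6 CPM in E, 49.8, 52.1 and 53.1 CPM in C and 62.2, 50.9 and 52 CPM in WT libraries.

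Most mitochondrial synthetases were measured at lower levels. Lars2, the mitochondrial leucyl enzyme, came first at 193 ± 188 CPM per kb in WT libraries, with an SD close to the mean that is described below. Tars2 (threonyl, 31.8 ± 2.41 CPM per kb) and Sars2 (seryl, 28.9 ± 4.38 CPM per kb) followed. At the low end stood Nars2 (asparaginyl, 4.08 ± 0.309 CPM per kb), Wars2 (tryptophanyl, 3.35 ± 0.0749 CPM per kb) and Mars2 (methionyl, 2.1 ± 0.308 CPM per kb). Here 7 of the 16 neighbouring pairs did not overlap between WT libraries. The place of Mars2 is uncertain, since the transcript length used for it, 11294 bases, exceeds its RefSeq span of chr1:55237177-55240058. Its merged exon length is also 11294 bases, so merged lengths do not test this. A shorter length would raise its level per kb. Sars2 had 47.6, 49.3 and 57.9 CPM in CE, 52.9, 43.7 and 44.8 CPM in E, 53.1, 51.1 and 50.1 CPM in C and 48.6, 50.1 and 63.5 CPM in WT libraries. Nars2 had 16.4, 16.6 and 17.3 CPM in CE, 15.8, 19.2 and 13.5 CPM in E, 16.4, 16.1 and 17.7 CPM in C and 16.5, 15.6 and 14.2 CPM in WT libraries, Wars2 had 14.1, 15.3 and 16.9 CPM in CE, 13.3, 15.2 and 15.2 CPM in E, 15, 14 and 15.1 CPM in C and 14.8, 15.1 and 14.4 CPM in WT libraries and Mars2 had 23.6, 24.7 and 22.6 CPM in CE, 22, 26.8 and 24.5 CPM in E, 21.1, 23.3 and 23.7 CPM in C and 26.2, 25.2 and 19.8 CPM in WT libraries. In these 3 the ranges of the groups overlapped. Reads may be shared where exons of different genes overlap, and the counts are uncertain there: Iars2 shares 22.9% of its exon bases with Rab3gap2 and Aars 14.3% with Exosc6.

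Within an amino acid the cytosolic enzyme was the more abundant in most cases. In 15 of 18 cytosolic and mitochondrial pairs the cytosolic gene had the higher level per kb in all 12 libraries, and the median ratio of WT levels was 4.09 (2.43 with merged exon lengths). Fars2 was paired with both Farsa and Farsb, and Eprs with both Ears2 and Pars2, so the 18 pairs are not all separate. The widest ratios were those of methionine (Mars1 over Mars2, 20.4), asparagine (Nars over Nars2, 14.4) and tryptophan (Wars over Wars2, 11.1). The methionine ratio is uncertain, because the length used for Mars2 (11294 bases, merged or not) exceeds its RefSeq span. A shorter length would lower this ratio, so its first place is not settled. The reverse held in all 12 libraries for cysteine (Cars over Cars2, 0.773), threonine (Tars over Tars2, 0.715) and leucine (Lars over Lars2, 0.136). With merged exon lengths the ratios of these 3 pairs were 0.874, 0.951 and 0.287. The leucine ratio is uncertain, since Lars2 varied 5.70-fold over the libraries and followed unnamed gene numbers, as described below. Whether its counts stand for the synthetase transcript alone was not tested. Summed over compartments, the mitochondrial members held 32.4 to 42.6% of the CPM of the cytosolic members in 10 libraries, 54.0% in C3 and 71.7% in WT2, the libraries with the highest Lars2.

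Variation over the 12 libraries was small for most members. The SD of log2 CPM was 0.12 to 0.24 among the cytosolic members, the largest being those of Rars (0.242), Hars (0.199) and Eprs (0.182). Among the mitochondrial members it was 0.788 for Lars2, 0.178 for Vars2 and 0.162 for Rars2, and the smallest was 0.0745 for Hars2. Hars2, the mitochondrial histidyl enzyme, thus moved the least of the 37, with 44.9, 48.3 and 47.5 CPM in CE, 49.7, 45.1 and 46.3 CPM in E, 45.4, 42.2 and 44.1 CPM in C and 48.2, 48.4 and 42.9 CPM in WT libraries. Eprs, the glutamyl-prolyl enzyme of the complex, had 162, 166 and 124 CPM in CE, 156, 187 and 148 CPM in E, 141, 165 and 166 CPM in C and 183, 179 and 135 CPM in WT libraries. Its lowest library was CE3 and its groups overlapped.

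Lars2 spread more over the libraries than any other member. It had 336, 280.3 and 618 CPM in CE, 389, 294 and 350.4 CPM in E, 387, 662 and 1003 CPM in C and 1598, 315 and 342 CPM in WT libraries. WT2 held more than any other library, C3, C2 and CE3 followed, and the other 8 libraries lay between 280.3 and 389 CPM. The difference of E from WT (log2 change -1.13, SE 0.51, adjusted p = 0.747) and that of CE from C (log2 change -0.73, SE 0.51, adjusted p = 0.999) did not pass, and both rest on these few libraries. Without WT2 the difference of E from WT had a log2 change of 0.08 (adjusted p = 0.949), and without C3 that of CE from C was -0.35 (adjusted p = 0.9997). Lars2 was also the member called when the low-count filter was dropped (E against WT, adjusted p = 2.07e-05). Genes with a mean above 5 CPM over the 12 libraries were ranked by the Pearson correlation of their log2 CPM with that of Lars2. The first 5 have numbers that the RefSeq table does not name. One of them, gene number 100861531, had 3806, 2985 and 7129 CPM in CE, 4805, 3523 and 4589 CPM in E, 3791, 5979.7 and 7565 CPM in C and 20638, 3594 and 3523 CPM in WT libraries, with the same 4 libraries on top. The part of these transcripts in the Lars2 counts was not tested.

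**Figure D2:**
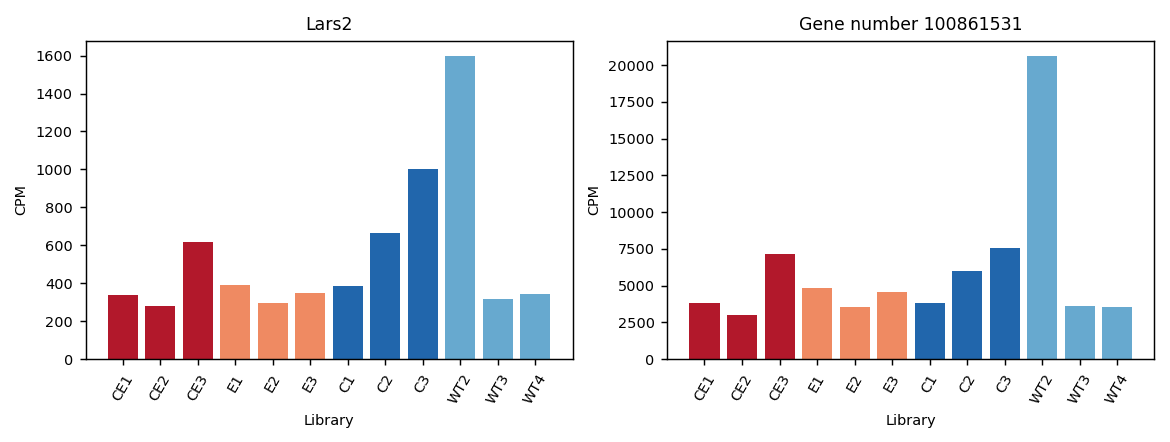
CPM of Lars2 (left) and of gene number 100861531 (right), 1 bar per library in the order CE, E, C, WT, on linear axes that start at 0. In both panels WT2 is the highest, at 1598 and 20638 CPM, and C2, C3 and CE3 are the next 3 libraries.

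The first question was whether Eµ-myc changed the synthetases in stem cells. None of the 37 was called in E against WT, where 0.0829% of all 14473 genes tested were called at an adjusted p under 0.05 (edgeR's quasi-likelihood test with Benjamini-Hochberg adjustment), and 1 had an unadjusted p under 0.05 (Lars2), against 6.58% of all genes. The changes were small: 19 of the 20 cytosolic members had a log2 change below 0, with a median of -0.11, and 11 of the 17 mitochondrial members, with a median of -0.06. The median over all genes was -0.0025 and 50.6% of them were below 0. Without E3 the cytosolic median was -0.04, and without WT2 the mitochondrial one was -0.0022. The smallest p-values were those of Lars2, Tars2, Cars, Hars and Yars. Tars2 had 98.6, 104 and 100.01 CPM in E libraries, against 121, 105 and 119 CPM in WT libraries (log2 change -0.19, SE 0.091, adjusted p = 0.768), and every E value lay below every WT value, as in 3.56% of all genes. Cars had 49.6, 50.9 and 43.6 CPM in E libraries, against 62.2, 50.9 and 52 CPM in WT libraries (log2 change -0.20, SE 0.11, adjusted p = 0.768), with E3 the lowest and WT2 the highest. Hars, the histidyl enzyme, had 117, 113 and 102 CPM in E libraries, against 148, 114 and 115 CPM in WT libraries (log2 change -0.18, SE 0.11, adjusted p = 0.769). Yars, the tyrosyl enzyme, had 85.1, 88.3 and 68.7 CPM in E libraries, against 96.5, 82.2 and 96.6 CPM in WT libraries (log2 change -0.18, SE 0.11, adjusted p = 0.769). The groups of Cars, Hars and Yars overlapped, and WT2 was the highest or next to the highest library in each.

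The same question was asked on the caspase knockout background. None of the 37 was called in CE against C, where 0.207% of all genes were, and 1 had an unadjusted p under 0.05 (Pars2), against 5.14% of all genes. The median was -0.10 over the cytosolic members, of which 17 of 20 were below 0, and 0.03 over the mitochondrial members, of which 13 of 17 were above 0. Over all genes the median was 0.0079, with 47.8% below 0 and 52.2% above. Without CE3 the mitochondrial median was -0.02, so its sign rests on that library, and without C2 the cytosolic one was -0.04. Pars2, the mitochondrial prolyl enzyme, had 19.2, 18.1 and 20 CPM in CE libraries, against 15.3, 16.2 and 15.4 CPM in C libraries (log2 change 0.29, SE 0.11, adjusted p = 0.733), and all 3 CE values lay above all 3 C values. Nars, the cytosolic asparaginyl enzyme, had 129, 133 and 125 CPM in CE libraries, against 145, 153 and 144 CPM in C libraries (log2 change -0.18, SE 0.094, adjusted p = 0.999), with all CE values below all C values. Cars had 42.8, 45.9 and 51.7 CPM in CE libraries, against 49.8, 52.1 and 53.1 CPM in C libraries (log2 change -0.14, SE 0.11, adjusted p = 0.999), and the groups overlapped. Ears2, the mitochondrial glutamyl enzyme, had 23.6, 22.8 and 26.3 CPM in CE libraries, against 22.5, 22.6 and 21.5 CPM in C libraries (log2 change 0.13, SE 0.10, adjusted p = 0.999), where CE lay above C by a small margin. Groups did not overlap for 2 members in the upward direction and 4 in the downward one, against 7.03% and 7.86% of all genes.

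The transgene effect was not called as different between the backgrounds for any member, nor for any of the 14473 genes by edgeR. At an unadjusted p under 0.05 it differed for 0 members and 305 genes (2.11%), and DESeq2 called 0 members as well. The smallest p-values among the members were those of Tars2, Fars2, Ears2, Vars2 and Farsa. Their differences of log2 changes were 0.24, 0.29, 0.21, 0.24 and 0.19, each with an adjusted p of 0.9997. The 95% interval for Fars2, the mitochondrial phenylalanyl enzyme, ran over -0.06 to 0.64, so that differences of this size cannot be read from 3 libraries a group.

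With both backgrounds pooled (CE and E minus C and WT, 6 libraries against 6), 0 members and 0.539% of all genes were called. All 20 cytosolic members had a log2 change below 0, from -0.17 (Cars) to -0.0030 (Qars), with a median of -0.09. Of the mitochondrial members 10 were below 0 and 7 above, with a median of -0.04. Among all genes 50.1% were below 0 and the median was -0.00040. Cell type markers moved in the same comparison: 7 of the 8 B-lineage markers fell (list median -2.07) and 2 of the 10 stem cell markers rose (0.29). No gene of the other marker lists passed. The part of these shifts in the changes of the synthetases was not tested. The genes of a compartment are not independent, and the groups overlapped for all 37, as they did for all but 0.746% of all genes. Per library, the median log2 CPM of the cytosolic members relative to the WT mean was -0.10, -0.13 and -0.07 in CE, -0.07, 0.02 and -0.21 in E, -0.12, 0.01 and -0.03 in C, and 0.08, -0.09 and -0.04 in WT. The SD of these medians within a group, pooled over the groups, was 0.081. It is the spread of single libraries and not the error of the pooled median change. The most negative median was that of E3. Without E3 the pooled cytosolic median was -0.06, and without WT4 the mitochondrial one was -0.0038. The interval of every cytosolic member (log2 change ± 1.96 SE) lay within -0.32 to 0.15, so that none reached a rise above 0.15 or a fall beyond 0.32 on the log2 scale. These intervals use a normal multiplier and are not adjusted for the number of members. They are thus narrower than intervals from the quasi-likelihood test, and changes somewhat outside this range are not excluded.

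**Figure D3:**
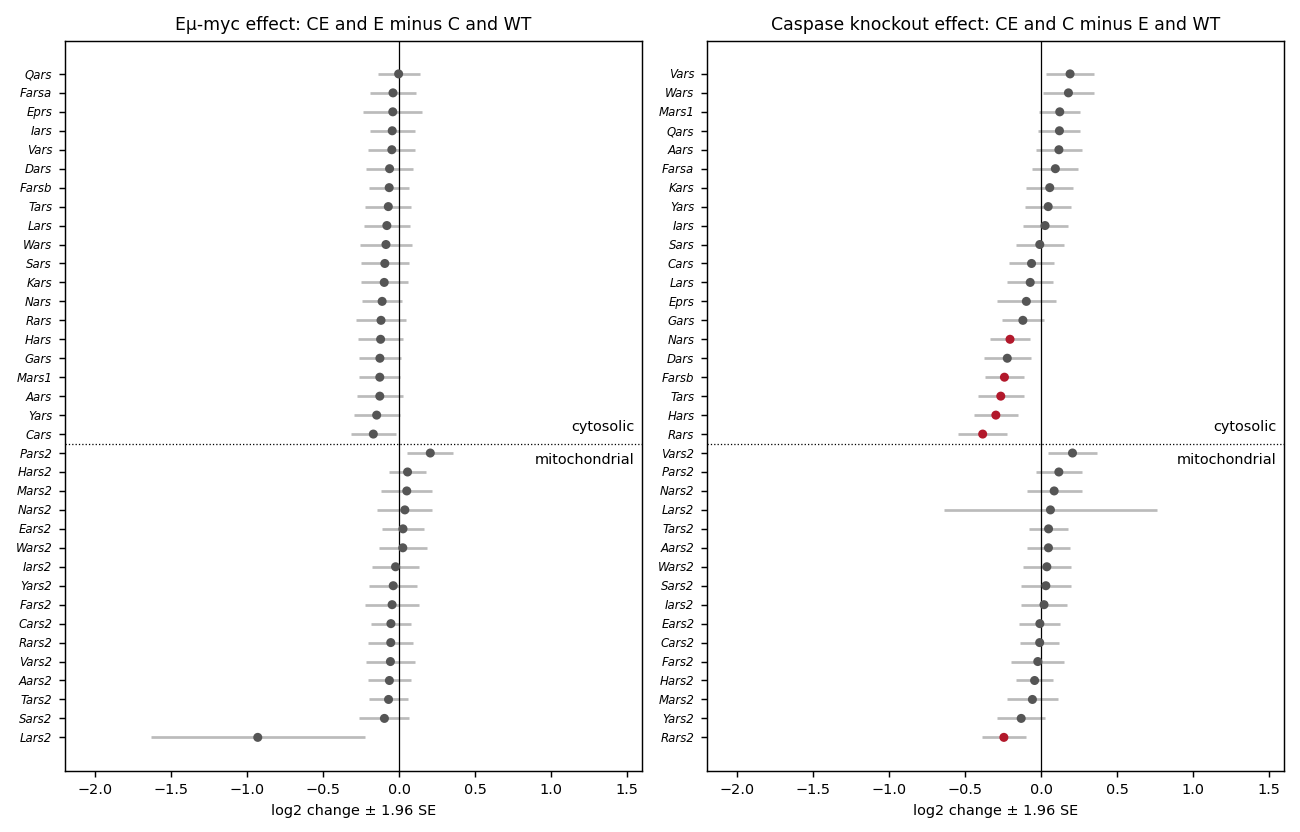
Log2 change with 1.96 SE for 36 members under Eµ-myc (left, CE and E minus C and WT) and under the caspase knockout (right, CE and C minus E and WT), cytosolic enzymes above and mitochondrial enzymes below, with members that passed an adjusted p under 0.05 in red. On the left all 20 cytosolic points lie at or left of 0 and none is red, and on the right 6 are red, between -0.39 and -0.21.

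The smallest p-values of this pooled comparison were those of Pars2 (log2 change 0.21, SE 0.077, adjusted p = 0.413), Lars2 (log2 change -0.93, SE 0.36, adjusted p = 0.443), Cars (log2 change -0.17, SE 0.075, adjusted p = 0.518), Yars (log2 change -0.15, SE 0.077, adjusted p = 0.622) and Mars1 (log2 change -0.13, SE 0.069, adjusted p = 0.642), which encodes the methionyl enzyme of the complex. Pars2 had 19.2, 18.1 and 20 CPM in CE, 16.6, 16.2 and 17.2 CPM in E, 15.3, 16.2 and 15.4 CPM in C and 14.1, 15 and 16.8 CPM in WT libraries, so that its 3 highest values were those of CE and its lowest was that of WT2. Mars1 had 124, 128 and 141 CPM in CE, 122, 126 and 105 CPM in E, 128, 151 and 141 CPM in C and 132, 123 and 139 CPM in WT libraries. The 3 genes with an E-box in the printed promoters had log2 changes of -0.13 (Aars), -0.07 (Farsb) and -0.05 (Iars) in this comparison. These lie within the range of the cytosolic members. A link between the element and the change was not tested, and some members have no promoter to search. Myc itself had a log2 change of 0.10 (adjusted p = 0.736). It had 347, 345 and 409.5 CPM in CE, 424, 449 and 428 CPM in E, 337, 324 and 319 CPM in C and 447, 437 and 394 CPM in WT libraries.

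The other question was what the joint loss of Casp1 and Casp11 did. Without the transgene (C against WT) none of the 37 was called, against 0.656% of all genes. An unadjusted p under 0.05 was reached by 4 members, all downward, against 12.7% of all genes downward. Hars had 96.5, 101 and 96.7 CPM in C libraries, against 148, 114 and 115 CPM in WT libraries (log2 change -0.36, SE 0.11, adjusted p = 0.075). Rars, the arginyl enzyme of the complex, had 78.5, 82.5 and 79.2 CPM in C libraries, against 125, 93.8 and 87.9 CPM in WT libraries (log2 change -0.35, SE 0.12, adjusted p = 0.0976). Tars, the threonyl enzyme, had 76.3, 79.2 and 75.5 CPM in C libraries, against 109, 89.8 and 79.8 CPM in WT libraries (log2 change -0.27, SE 0.11, adjusted p = 0.151). In these 3 genes every C value lay below every WT value, and WT2 was the highest library. Groups lay apart in this direction for 4 members, against 13.9% of all genes. Rars2, the mitochondrial arginyl enzyme, had 27.4, 27.5 and 29.7 CPM in C libraries, against 35.5, 35.5 and 29.6 CPM in WT libraries (log2 change -0.25, SE 0.11, adjusted p = 0.174), and Farsb, the beta subunit of the phenylalanyl enzyme, had 76.4, 86 and 79.8 CPM in C libraries, against 99.8, 90.7 and 85.7 CPM in WT libraries (log2 change -0.19, SE 0.094, adjusted p = 0.238). Both overlapped between the groups. The median was -0.08 for the cytosolic and -0.07 for the mitochondrial members, and without WT2 these were 0.0061 and -0.01. Without WT2 the log2 changes were -0.21 for Hars (adjusted p = 0.337), -0.16 for Rars (adjusted p = 0.447), -0.12 for Tars (adjusted p = 0.606), -0.19 for Rars2 (adjusted p = 0.491) and -0.11 for Farsb (adjusted p = 0.644), and 0 members were called. Without WT3 1 member was called and without WT4 4 were.

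With the transgene (CE against E) again none was called, against 1.58% of all genes. An unadjusted p under 0.05 was reached by 9 members, 2 upward and 7 downward, against 22.6% of all genes. Groups did not overlap for 5 members upward and 8 downward, against 14.8% and 15.1% of all genes. Rars had 72.1, 73.7 and 70.6 CPM in CE libraries, against 98.8, 103 and 87.3 CPM in E libraries (log2 change -0.42, SE 0.12, adjusted p = 0.0715). Farsb had 77.3, 71.7 and 74.2 CPM in CE libraries, against 97.5, 94.2 and 82.3 CPM in E libraries (log2 change -0.30, SE 0.094, adjusted p = 0.0927), and Nars had 129, 133 and 125 CPM in CE libraries, against 158, 169 and 144 CPM in E libraries (log2 change -0.28, SE 0.094, adjusted p = 0.108). In all 3 the CE libraries lay below the E libraries. The valyl enzymes went the other way: Vars2, the mitochondrial one, had 75.5, 78.1 and 95.4 CPM in CE libraries, against 64.6, 68.5 and 65.6 CPM in E libraries (log2 change 0.33, SE 0.12, adjusted p = 0.119), and Vars had 703, 710.3 and 821 CPM in CE libraries, against 648, 606 and 591 CPM in E libraries (log2 change 0.28, SE 0.11, adjusted p = 0.164), with every CE value above every E value for both. With trends of length and GC content removed, the log2 change was 0.04 for Vars2 (adjusted p = 0.807) and -0.02 for Vars (adjusted p = 0.912). Without CE3 it was 0.22 for Vars2 and 0.20 for Vars.

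With the transgene groups pooled (CE and C minus E and WT, 6 libraries against 6), 6 members fell and 0 rose. That is 16.2% of the members, where 21.0% of all genes passed, 11.8% downward and 9.26% upward, so the share is close to the background. Of the 20 cytosolic members 5 fell (Rars, Hars, Farsb, Tars and Nars), and of the 17 mitochondrial members 1 did (Rars2). By structure, 4 of the 10 class II cytosolic members fell and 1 of the 9 of class I, and by location 1 of the 8 members of the multisynthetase complex did (Rars). The medians were -0.04 for the cytosolic and 0.02 for the mitochondrial members. The cytosolic median was 0.04 with a covariate for the Y-linked transcripts and 0.0037 without C1 and C3, so that it has no settled sign.

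Rars, which supplies arginyl-tRNA, had 72.1, 73.7 and 70.6 CPM in CE, 98.8, 103 and 87.3 CPM in E, 78.5, 82.5 and 79.2 CPM in C and 125, 93.8 and 87.9 CPM in WT libraries. All 6 CE and C values lay below all 6 E and WT values (log2 change -0.39, SE 0.083, adjusted p = 0.00754). Hars, which supplies histidyl-tRNA, had 92.5, 89 and 100.1 CPM in CE, 117, 113 and 102 CPM in E, 96.5, 101 and 96.7 CPM in C and 148, 114 and 115 CPM in WT libraries, also without overlap (log2 change -0.30, SE 0.074, adjusted p = 0.0138). Hars shares 7.97% of its exon bases with Hars2 on the opposite strand, and whether the counting used strand is not known from the sources used here, so reads of the pair may be mixed. Tars had 69.7, 74.8 and 76.3 CPM in CE, 85.8, 96.7 and 81.9 CPM in E, 76.3, 79.2 and 75.5 CPM in C and 109, 89.8 and 79.8 CPM in WT libraries, the last of the 3 genes whose groups did not overlap (log2 change -0.27, SE 0.077, adjusted p = 0.0261). Non-overlap in the downward direction occurred in 4.63% of all genes.

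**Figure D4:**
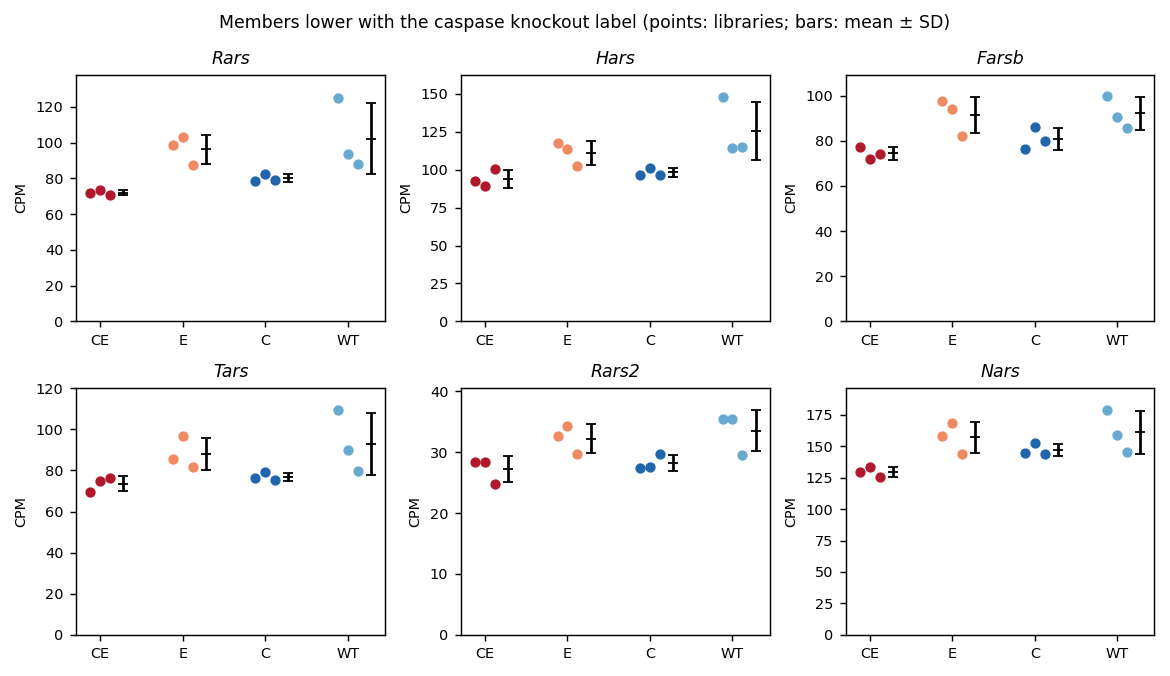
CPM of the 6 members that fell with the caspase knockout label, 1 point per library with mean and SD (n = 3) beside it, in the order CE, E, C, WT, on axes that start at 0. The 6 CE and C libraries lie below the 6 E and WT libraries in Rars, Hars and Tars, and WT2 is the highest point in Rars, Hars, Farsb, Tars and Nars.

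Farsb had 77.3, 71.7 and 74.2 CPM in CE, 97.5, 94.2 and 82.3 CPM in E, 76.4, 86 and 79.8 CPM in C and 99.8, 90.7 and 85.7 CPM in WT libraries, with C2 at the level of WT4 and above E3 (log2 change -0.24, SE 0.066, adjusted p = 0.0201). It shares 9.47% of its exon bases with Sgpp2 on the other strand. Its partner subunit Farsa, which forms the same enzyme, was not called (log2 change 0.09, SE 0.077, adjusted p = 0.415) and had 202, 206 and 239.7 CPM in CE, 199, 189 and 179 CPM in E, 200.4, 222 and 199.6 CPM in C and 197, 186 and 240.4 CPM in WT libraries. Rars2 had 28.4, 28.4 and 24.8 CPM in CE, 32.7, 34.3 and 29.6 CPM in E, 27.4, 27.5 and 29.7 CPM in C and 35.5, 35.5 and 29.6 CPM in WT libraries (log2 change -0.25, SE 0.075, adjusted p = 0.0318), where C3 reached the lowest E and WT values. Nars had 129, 133 and 125 CPM in CE, 158, 169 and 144 CPM in E, 145, 153 and 144 CPM in C and 179, 159 and 145 CPM in WT libraries (log2 change -0.21, SE 0.067, adjusted p = 0.041), with overlap between C and the lowest E and WT libraries. Among the members that were not called, the highest log2 changes were those of Vars2 (log2 change 0.21, SE 0.081, adjusted p = 0.0852) and Vars (log2 change 0.19, SE 0.079, adjusted p = 0.102). Vars2 shares 8.52% of its exon bases with an antisense transcript.

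Other properties of the libraries moved with the caspase label as well. Of 7 macrophage marker genes 4 fell in this comparison (list median -0.78), of 6 basophil and mast cell markers 4 (-0.83), of the 7 neutrophil markers tested 2, of 7 erythroid markers 1 and of the 4 T and NK cell markers tested 1, while of the 10 stem cell markers 4 rose (0.18) and of the 8 B-lineage markers 1 did. The macrophage markers summed to 13.4 to 17.0 CPM in CE, 20.4 to 38.8 CPM in E, 14.8 to 19.8 CPM in C and 19.9 to 25.2 CPM in WT libraries. The basophil and mast cell markers summed to 55.9 to 70.3 CPM in CE, 78.7 to 231 CPM in E, 86.5 to 117 CPM in C and 107 to 173 CPM in WT libraries, and none of either list was at 0 in any library. Their part in the changes of the synthetases was not tested. With the Y-linked transcripts as a covariate, 0 of the 6 passed. CE3 is the only caspase knockout library without these transcripts, so it alone separates the covariate from the caspase label. A call lost in this fit therefore does not show that a change went away. Their log2 changes were then -0.42 for Rars (SE 0.18, adjusted p = 0.224), -0.41 for Rars2 (SE 0.15, adjusted p = 0.198), -0.26 for Nars (SE 0.14, adjusted p = 0.322) and -0.25 for Farsb (SE 0.14, adjusted p = 0.347), each at least as large as without it and with a wider SE. Those of Tars (-0.20, SE 0.16, adjusted p = 0.505) and Hars (-0.18, SE 0.15, adjusted p = 0.522) were smaller. Without C1 and C3 0 passed (Rars -0.36, adjusted p = 0.130). Leaving out single libraries gave 2 calls without E1, E2, C1, C3 or WT2 and 11 without WT4. Rars and Hars passed in all 12 of these fits, Farsb in 7, Tars in 6, Rars2 in 4 and Nars in 2. The caspase label also moved with base composition, as the plot of change against GC content shows. Over all genes the median log2 change was -0.12 for transcripts under 45% GC, -0.03 for 45 to 50%, 0.05 for 50 to 55% and 0.13 from 55% on, and over the members in these ranges it was -0.09, -0.04, 0.05 and 0.12. The 6 genes that fell had a GC content of 44.1 to 50.4% (median 46.4%), and the other 31 had 38.8 to 60.9% (median 50.5%). With the trends of length and GC content removed per library, Tars (-0.25, adjusted p = 0.0325) and Hars (-0.22, adjusted p = 0.0394) passed, Rars did not (-0.21, adjusted p = 0.0503) and Rars2 had a log2 change of 0.01 (adjusted p = 0.904). With both corrections together 0 passed.

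**Figure D5:**
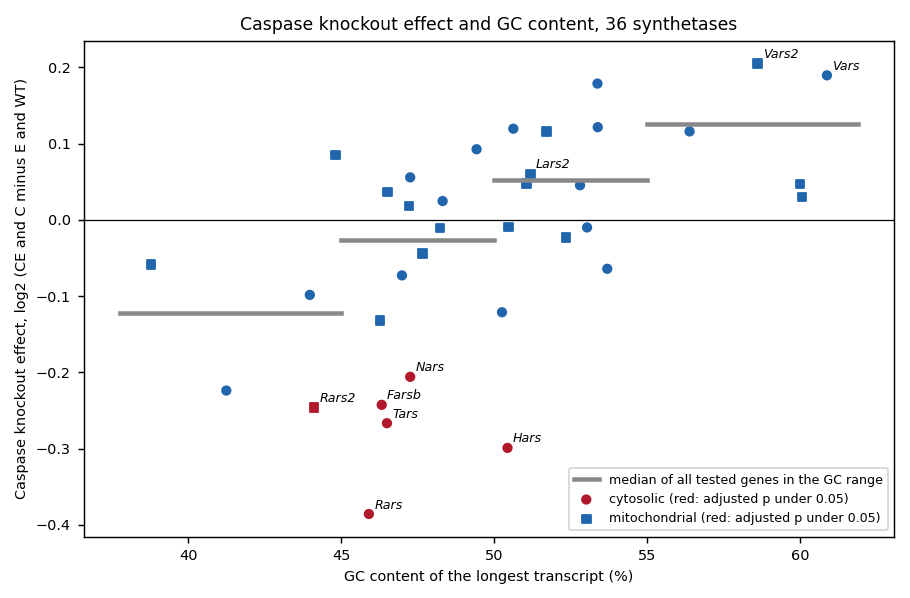
Log2 change under the caspase knockout (CE and C minus E and WT) of 36 members against the GC content of the longest transcript in percent, circles for cytosolic and squares for mitochondrial enzymes, red for an adjusted p under 0.05, with grey bars for the median of all tested genes in 4 GC ranges. The members scatter around the grey bars, which climb between -0.12 and 0.13, and the 6 red points lie below them at 44.1 to 50.4% GC.

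Proteins that work with the synthetases were counted from lists in the pooled caspase comparison, where 11.8% of all genes fell and 9.26% rose. The lists are short, and their counts describe the genes named and not the list. Of the 3 scaffold genes of the complex, 2 fell: Eef1e1 (log2 change -0.45, SE 0.094, adjusted p = 0.00645) and Aimp1 (log2 change -0.27, SE 0.066, adjusted p = 0.0131), and Aimp2 was at -0.11 (adjusted p = 0.39). Eef1e1 had 37.9, 32.3 and 37.8 CPM in CE, 54, 52.5 and 46.9 CPM in E, 39.3, 43 and 40.4 CPM in C and 67.2, 50.2 and 44.6 CPM in WT libraries, and Aimp1 had 52.3, 47.6 and 45.5 CPM in CE, 65.4, 59.9 and 59.7 CPM in E, 52.1, 54.7 and 52.1 CPM in C and 65.8, 59.4 and 55.7 CPM in WT libraries. For both, all CE and C values lay below all E and WT values. Of the 4 proofreading genes, whose products clear wrongly charged tRNAs, 2 fell: Prorsd1 (log2 change -0.51, SE 0.10, adjusted p = 0.00403) and Dtd2 (log2 change -0.40, SE 0.08, adjusted p = 0.00572), again without overlap. Prorsd1 had 15.4, 12.8 and 14.3 CPM in CE, 18.7, 18.8 and 20.1 CPM in E, 14.6, 14.1 and 12.2 CPM in C and 24.6, 19.1 and 17.8 CPM in WT libraries. Of 9 other charging enzymes 1 fell, Pstk (log2 change -0.33, SE 0.087, adjusted p = 0.0177), the kinase on the route to selenocysteyl-tRNA. In these lists 0 genes rose.

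Uncharged tRNA is sensed by the kinase encoded by Eif2ak4 with its activator Gcn1, which leads to ATF4 and the amino acid response. Of 25 genes of that response 3 rose and 0 fell in the pooled caspase comparison, a share close to the 9.26% of all genes that rose. They were Trib3, a pseudokinase gene that ATF4 induces (log2 change 0.996, SE 0.16, adjusted p = 0.00272), Sesn2, whose product signals leucine shortage (log2 change 0.62, SE 0.11, adjusted p = 0.00348), and Ddit4, an inhibitor of mTORC1 (log2 change 0.76, SE 0.19, adjusted p = 0.0152). Trib3 had 4.84, 3.81 and 4.89 CPM in CE, 2.25, 1.9 and 2.81 CPM in E, 3.87, 3.79 and 4.47 CPM in C and 1.39, 2.23 and 2.34 CPM in WT libraries. Trib3 is thus a gene of low counts. Sesn2 had 10.5, 9.68 and 11.7 CPM in CE, 7.3, 7.88 and 8.06 CPM in E, 12.1, 11.2 and 10.2 CPM in C and 5.12, 7.3 and 7.06 CPM in WT libraries. Every CE and C value lay above every E and WT value for Trib3 and Sesn2, while Ddit4 overlapped, with 62.1, 44 and 49.7 CPM in CE, 32.4, 29.9 and 37 CPM in E, 84.3, 62.8 and 56.1 CPM in C and 23.2, 27.8 and 60.9 CPM in WT libraries. The list's median was 0.04, Atf4 itself was at 0.04 (adjusted p = 0.777) and Asns, the asparagine synthetase gene that ATF4 induces, at -0.26 (adjusted p = 0.294). Of 8 genes of the kinases and regulators 2 rose, Gcn1 (log2 change 0.45, SE 0.089, adjusted p = 0.00514) and Ppp1r15a (log2 change 0.54, SE 0.14, adjusted p = 0.0179), which encodes a phosphatase subunit that reverses the kinases' mark. With trends of length and GC content removed, Gcn1 had a log2 change of 0.03 (adjusted p = 0.778). Of the synthetases with a response element in the printed promoters, Aars was at 0.12, Gars at -0.12 and Tars at -0.27, so they had different signs.

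Within single backgrounds, Sesn2 rose in C against WT (log2 change 0.78, SE 0.15, adjusted p = 0.0461) and Trib3 rose in CE against E (log2 change 0.96, SE 0.22, adjusted p = 0.0462). In the pooled transgene comparison 0 of the 25 genes passed, 20 of the 25 had a log2 change below 0, against 50.1% of all genes, and the median was -0.14. Of the 25, 7 had an unadjusted p under 0.05 downward, against 4.56% of all genes. From the lists other than those of cell type markers, 15 genes passed in the pooled caspase comparison. Of these, 0 passed with the covariate for Y-linked transcripts, although all 15 had the same sign and 6 had a log2 change at least as large, such as Trib3 (1.14, SE 0.30, adjusted p = 0.178) and Aimp1 (-0.38, SE 0.13, adjusted p = 0.191). The change of Tsfm, a mitochondrial translation factor gene, was reduced the most (-0.18 with the covariate and -0.39 without it). Of the 15, 6 passed with the trends of length and GC removed (Ddit4, Dtd2, Eef1e1, Trib3, Sesn2 and Ppp1r15a), and 15 passed in DESeq2.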

How the data were processed

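Total RNA of sorted hematopoietic stem cells was sequenced in 12 libraries, with 3 mice of every genotype. The deposited table holds whole-number counts per NCBI gene number, with no normalization by the authors found in them. The reads were aligned with STAR 2.5.3 to mm10, per the submitters' processing notes. The sources used here do not give the counter, its annotation or its use of strand. RefSeq named 25275 of the 27179 gene numbers.

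Counts were analysed with edgeR 4.0.16 (R 4.3.3): TMM factors, filterByExpr by group, 14473 genes, group means of all 12 libraries in one fit, and two-sided quasi-likelihood F tests adjusted by Benjamini-Hochberg over all genes tested; a gene was called at an adjusted p under 0.05. The biological coefficient of variation was 0.139. The 7 comparisons were the transgene within each caspase background (E against WT and CE against C), the caspase loss within each transgene state, the difference between the transgene effects, and both pooled effects. CPM used the effective library size. Lengths and GC content are those of the longest GENCODE transcript.

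Per-library values are given for each member called, for the 5 members of smallest p where fewer than 5 were called, for the 3 highest and 3 lowest levels and for the 3 widest spreads in each compartment. Other genes were shown from the lists if they passed, up to 4 a list. Values of 1 member are not reported here. The Lars2 companions were chosen after their values were seen. The members and the lists were chosen with earlier results of these data known.

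Alternatives were RLE factors, no or a stricter low-count filter, DESeq2 1.42.0, limma 3.58.1 voom with quality weights, only the groups compared, the replicate number as a block, a covariate for Y-linked transcripts, removal of length and GC trends, C1 and C3 left out, and each library left out. The steps were tested on simulated counts.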

Additional observations from a re-analysis of the deposited data

How the results depend on the processing

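The counts of members called and the medians per compartment were recomputed under the alternatives. Calls appeared in E against WT (1) and the pooled transgene comparison (1) without a low-count filter only. In C against WT the count was 0, and 2 with no filter, 1 in DESeq2 and 3 in voom. In CE against E it was 0, and 1 with no filter, in voom or with only the groups compared, and 2 in DESeq2. In the pooled caspase comparison it was 6, and 11 in voom, 0 with the Y-linked covariate, 2 with length and GC trends removed, 0 without C1 and C3, and 0 with the trends removed and the covariate added, a combination chosen after seeing the data. Mitochondrial medians moved in voom (-0.019 in CE against C, 0.000932 in C against WT, 0.023 in CE against E and 0.071 in the difference of the transgene effects), with the Y-linked covariate (0.070 in C against WT, 0.15 in CE against E, 0.072 in the difference, 0.14 in the pooled caspase comparison) and with the trends removed (0.19 in the difference, -0.048 in the pooled caspase comparison). Cytosolic medians moved in C against WT with the covariate (0.074) and without C1 and C3 (0.014), and in the difference without C1 and C3 (-0.067). In every fit with the covariate, CE3 alone separates it from the caspase label. Signs turned for Vars in CE against E with the trends removed (-0.024, and -0.017 with the covariate added), for Rars2 in the pooled caspase comparison with the trends removed (0.013), for Farsb in C against WT with both (0.010) and for Lars2 in E against WT without WT2 (0.083; -1.50 to 0.083 over all single libraries). Leaving out 1 library at a time gave 2 to 11 calls in the pooled caspase comparison and 0 to 4 in C against WT. Over the same fits the mitochondrial medians ran over -0.077 to -0.0022 in E against WT, -0.10 to -0.012 in C against WT, 0.025 to 0.099 in CE against E, -0.017 to 0.063 in CE against C and 0.058 to 0.19 in the difference, and the cytosolic medians over -0.15 to -0.035 in E against WT, -0.14 to -0.042 in CE against C, -0.11 to 0.0061 in C against WT, -0.11 to 0.039 in CE against E and -0.049 to 0.083 in the difference. The cause of these moves was not tested. Same-numbered libraries did not deviate together (correlations of -0.24 to 0.17). This gives no sign that the numbers pair the mice but cannot exclude it, and the labels do not say. With the replicate number as a block the counts were 3 in C against WT, 4 in CE against E and 11 in the pooled caspase comparison. The mitochondrial median of C against WT was then -0.011. Number 4 belongs to WT4 alone, so its block term absorbs that library. With WT4 left out and no block, the counts were 4 in C against WT and 11 in the pooled caspase comparison. The block fit therefore cannot tell pairing from the loss of WT4 in comparisons that include WT. Counting error (the coefficient of variation that the mean WT count allows) was 0.702 to 5.03% and exceeded the spread between WT libraries for 2 of the 37 members, Wars2 (5.03%, against 2.23%) and Ears2 (3.96%, against 2.52%).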

Other observations

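Other genes of translation were followed from the lists in the pooled caspase comparison (CE and C minus E and WT), where 11.8% of all genes fell and 9.26% rose. Of 7 cytosolic elongation factor genes 2 rose and 1 fell. Eef2, the translocation factor, rose (log2 change 0.37, SE 0.11, adjusted p = 0.0278), and so did Eef2k (log2 change 0.29, SE 0.088, adjusted p = 0.0331), whose product inhibits it. Eef1b2, an exchange factor of the factor that delivers charged tRNA, fell (log2 change -0.33, SE 0.093, adjusted p = 0.0225). Eef2 had 5671, 5273 and 6096 CPM in CE, 4338, 3929 and 4113 CPM in E, 5281, 5679.9 and 5159 CPM in C and 3448, 4030.2 and 5790.1 CPM in WT libraries, with WT4 as high as the CE libraries, so the groups overlapped. Of 11 mitochondrial translation factor genes 1 fell, Tsfm (log2 change -0.39, SE 0.094, adjusted p = 0.0128), the mitochondrial exchange factor of the same step. It had 46.3, 45.7 and 54.8 CPM in CE, 69.5, 59 and 53.8 CPM in E, 50.1, 55.8 and 48.5 CPM in C and 85.6, 61.5 and 65.5 CPM in WT libraries. Of 16 tRNA maturation genes 1 fell, Trit1 (log2 change -0.28, SE 0.075, adjusted p = 0.0189), whose product modifies a base beside the anticodon. The last 2 counts are below the share of all genes that fell. In the pooled transgene comparison 0 genes of these lists passed. Myc had a log2 change of -0.31 (adjusted p = 0.00816) in the pooled caspase comparison, with 347, 345 and 409.5 CPM in CE, 424, 449 and 428 CPM in E, 337, 324 and 319 CPM in C and 447, 437 and 394 CPM in WT libraries. CE3 lay above WT4, so the groups overlapped. With the covariate for Y-linked transcripts Myc had a log2 change of -0.11 (SE 0.13, adjusted p = 0.653), and with trends of length and GC content removed -0.35 (adjusted p = 0.00646).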
